A study of Mus musculus with 14 samples.

Results

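Gpnmb, Cyp2s1, Vldlr, Uchl1 and Emp1 are 5 of the 22048 genes in a protein-coding count table of mouse CD4+ T cells. They are best known from tissues other than T cells, and they were chosen because their RNA was far more abundant after culture with SGC0946, which inhibits the enzyme DOT1L, in cells that carried an interferon-gamma reporter signal or in cells that did not. The values that chose them are therefore described below without a test. The choice used gene names and no numeric limit.

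The cells came from spleen and peripheral lymph nodes of C57BL/6 mice with an IFN-g-YFP reporter, in which yellow fluorescent protein (YFP) marks cells that have turned on the interferon-gamma gene. Naive cells (CD4+ CD44- CD62L+, n = 3) were sorted directly from the mice and had no culture. All other groups started from enriched CD4+ T cells, not from the sorted naive cells, and spent 4 days in Th1 conditions. They were activated with 1 µg/ml of antibodies to CD3 and CD28, received IL-12 together with IL-2 (10 ng/ml of either), and IL-4 was blocked with 10 µg/ml of antibody. Each culture also held 1 µM of SGC0946 or of SGC0649, the control compound that does not inhibit DOT1L, and was sorted afterwards into cells with the YFP signal (YFPpos) and cells without it (YFPneg). With SGC0649 this gave 2 YFPneg and 3 YFPpos libraries, and with SGC0946 3 libraries of either sort, for 14 libraries in all. Both compounds were given at the same dose, and a culture without either compound was not analysed here. The cultured libraries carry the numbers 61 to 63 (SGC0649) and 91 to 93 (SGC0946) in their titles, which are used as replicate names, and YFPneg SGC0649 number 63 was not analysed here. The submitters call the libraries biological replicates. That they are from separate animals is not stated, so p-values measure the spread between these libraries, which may be in part technical.

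DOT1L is the enzyme that methylates lysine 79 of histone H3, a mark found along the bodies of transcribed genes. Gpnmb encodes a transmembrane glycoprotein of melanosomes and endolysosomes, known from melanocytes, osteoclasts, macrophages and dendritic cells, so it is not foreign to the immune system. Cyp2s1 encodes a cytochrome P450 that is inducible through the aryl hydrocarbon receptor. Vldlr encodes a receptor for apolipoprotein E-rich lipoproteins and for reelin, Uchl1 a deubiquitinase that is abundant in neurons, and Emp1 a membrane protein with 4 passes that belongs to the family of PMP22 and is known from epithelia.

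In GENCODE release M21 (GRCm38), Emp1 (ENSMUSG00000030208) lies on chromosome 6 from 135362545 to 135383173, and Gpnmb (ENSMUSG00000029816) lies on the same chromosome from 49036546 to 49070929. Vldlr (ENSMUSG00000024924) spans 27216484 to 27254231 on chromosome 19 and Uchl1 (ENSMUSG00000029223) spans 66676091 to 66687234 on chromosome 5. These 4 genes are on the plus strand. Cyp2s1 (ENSMUSG00000040703) is on the minus strand of chromosome 7, from 25802475 to 25816913.

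The sequence ahead of 3 of the transcription starts is shown because the genes were chosen for a shared rise and the windows show what letters their starts hold. Emp1 and Gpnmb hold matches to a motif searched, and Vldlr, which had the largest inhibitor fold in YFPneg cells, holds none. Sequences are from RefSeq (GRCm38.p6), plus strand, 5′ to 3′, for the most upstream start of each gene in RefSeq. Capitals mark a match to a motif on either strand. The Vldlr window is chr19:27216234-27216483 and the Gpnmb window is chr6:49036268-49036517, each the 250 bases before the start. For Emp1 the stretch chr6:135362708-135362903 is shown, 196 bases that end 28 bases before the start, since 54 bases of the window lie in exons of another Emp1 transcript. The Emp1 window lies within the gene as GENCODE draws it, downstream of the GENCODE start at 135362545.
Emp1: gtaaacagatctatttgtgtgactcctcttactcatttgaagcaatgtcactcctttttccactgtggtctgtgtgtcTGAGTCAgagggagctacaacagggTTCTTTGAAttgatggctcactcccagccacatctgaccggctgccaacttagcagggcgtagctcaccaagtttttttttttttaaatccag
Vldlr: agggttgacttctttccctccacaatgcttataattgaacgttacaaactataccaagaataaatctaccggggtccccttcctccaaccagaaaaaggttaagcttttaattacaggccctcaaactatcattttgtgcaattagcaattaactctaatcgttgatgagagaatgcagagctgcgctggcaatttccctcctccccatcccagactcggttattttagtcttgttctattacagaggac
Gpnmb: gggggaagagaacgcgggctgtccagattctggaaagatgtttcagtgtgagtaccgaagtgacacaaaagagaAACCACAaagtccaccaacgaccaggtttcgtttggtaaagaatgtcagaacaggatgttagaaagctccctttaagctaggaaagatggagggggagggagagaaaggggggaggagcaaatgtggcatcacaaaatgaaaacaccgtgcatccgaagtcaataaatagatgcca

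The 250 bases before the start were searched on both strands for the box TATAAA, for the GC box GGGCGG, and for TGANTCA (AP-1), CACGTG (E-box), TCATGTG (M-box), GCGTG (core of the xenobiotic response element), TCACACCT (T-box), TTCNNNGAA (GAS element) and TGTGGTT (Runx). The Emp1 window held 2 matches to TGANTCA, 138 and 18 bases before the start, and 2 to TTCNNNGAA, 111 and 13 bases before it. The pair nearest the start overlaps and lies outside the stretch shown. Of all 32851 RefSeq windows of this length, 6.75% held TGANTCA and 7.02% held TTCNNNGAA. The Gpnmb window held 1 match to TGTGGTT, 169 bases before the start, as did 4.4% of windows. The Cyp2s1 window lies in annotated exons and is not shown. It held 3 matches to GGGCGG, found in 32.7% of windows, and none to GCGTG, found in 28.2%. The windows of Uchl1 and of the most upstream Vldlr start held no match, a more downstream Vldlr start had 1 GGGCGG, and a more downstream Emp1 start had 1 GCGTG, 41 bases before it. No motif was thus found at the most upstream RefSeq start of more than 1 of the 5 genes. CpG dinucleotides numbered 15 in the Cyp2s1 window, 7 each in those of Gpnmb and Uchl1, 5 in that of Vldlr and 3 in that of Emp1, against a median of 6 over all windows. The window of the more downstream start held 18 for Vldlr and 3 for Emp1. Which start these cells use was not tested. A match describes the letters only.

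Libraries held between 14486577 and 31614057 counts, and 57.2% to 65.2% of reads were assigned to genes. Of 22048 genes, 12343 passed the filter on low counts, the 5 members among them, and levels are given as counts per 1000000 scaled with TMM factors (CPM). In SGC0649 cultures Ifng, the gene the sort reports on, averaged 737 CPM ± 169 (SD, n = 3) with the reporter signal and 33.8 CPM ± 11.8 (SD, n = 2) without it. In SGC0946 cultures it averaged 645 CPM ± 97.3 with the signal and 66.8 CPM ± 42.5 without it (SD, n = 3 each). The YFPneg SGC0946 libraries spanned 31.2 to 114 CPM and the YFPneg SGC0649 libraries 25.4 to 42.2 CPM (log2 1.00, edgeR adjusted p = 0.0938), and the part of this in the YFPneg values below was not tested. The 9 T cell markers summed to 4060 to 5710 CPM in every library. Unmapped reads made up 3.61% of YFPpos SGC0946 number 92 and 6.44% to 8.35% of the other 5 YFPpos libraries, 3.14% to 4.62% of the YFPneg libraries and 7.4% to 8.66% of the naive libraries, so this share was higher in the YFPpos than in the YFPneg libraries, apart from SGC0946 number 92. The 14 macrophage and monocyte markers summed to 13.7 to 14.3 CPM in YFPpos SGC0946 cells, 6.4 to 8.07 CPM in YFPpos SGC0649 cells, 4.39 to 10.3 CPM in YFPneg SGC0946 cells, 4.73 to 6.91 CPM in YFPneg SGC0649 cells and 15.1 to 19.2 CPM in naive cells. Csf1r, C1qa, C1qb, C1qc and Marco had 0 counts in both SGC0946 groups, and of these C1qa and Marco also had 0 counts in both SGC0649 groups. Cd14, Fcgr1 and Mertk had 0 counts in YFPpos SGC0649 cells but not in YFPpos SGC0946 cells. Of the 9 markers tested, 1 was higher with SGC0946 in YFPpos cells and none in YFPneg cells. The 2 CD8 T cell markers summed to 12.2 to 19.7 CPM in YFPneg SGC0946 and 6.5 to 9.51 CPM in YFPneg SGC0649 cells, where 1 was called higher. The 7 B cell markers summed to 2.7 to 3.16 CPM in YFPpos SGC0946 and 1.08 to 1.47 CPM in YFPpos SGC0649 cells, with 1 of 3 tested called higher, Ms4a1 and Pax5 at 0 counts in the former. The 7 dendritic cell markers summed to 3.34 to 4.22 and 3.82 to 5.88 CPM in the same groups, with 1 of 2 tested called higher. Xcr1, Clec9a and Siglech had 0 counts there with either compound, and Clec10a with SGC0946. The 10 granulocyte and mast cell markers summed to 0 to 7.05 CPM in YFPneg SGC0946 and 0.0514 to 2.39 CPM in YFPneg SGC0649 cells, with 0 of 2 tested called. In YFPpos cells 1 of 4 neural markers tested was called higher and 1 lower with SGC0946. The part of these cell types in the results was not tested. In YFPpos SGC0946 cells Gpnmb was at 24.2 to 37.8 CPM, and which cells held it was not tested. In bulk libraries, a change in the number of cells that express a gene and a change in RNA per cell cannot be told apart.

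Emp1 had the highest level of the 5 per kilobase of exon in each cultured group, and its groups did not overlap. Its level in naive cells was 0.120, 0.187 and 0.113 CPM, from 2, 3 and 2 counts. With SGC0649 it was 13.8 and 6.83 CPM in YFPneg cells and 42.2, 24.6 and 20.7 CPM in YFPpos cells. With SGC0946 it was 52.1, 47.2 and 46.9 CPM in YFPneg cells and 147, 175 and 145 CPM in YFPpos cells. Every inhibitor library was thus above every control-compound library of either sort. The means increased in the order naive, YFPneg SGC0649, YFPpos SGC0649, YFPneg SGC0946, YFPpos SGC0946, from 0.140 CPM ± 0.0407 (SD, n = 3) to 156 CPM ± 16.5 (SD, n = 3). The 3 YFPpos SGC0649 libraries differed from each other by more than the 3 YFPneg SGC0946 libraries did.

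Vldlr had no count in the naive libraries and the same order of groups, again without overlap. It was at 1.37 and 2.21 CPM in YFPneg SGC0649 cells and at 6.77, 5.83 and 3.55 CPM in YFPpos SGC0649 cells. With SGC0946 it was at 14.1, 16.3 and 16.2 CPM in YFPneg cells and at 23.0, 29.7 and 21.6 CPM in YFPpos cells. As a ratio, the 2 sorts lay closer to each other with SGC0946 than with SGC0649. Group means were 1.79 CPM ± 0.593 (SD, n = 2) and 15.6 CPM ± 1.27 (SD, n = 3) in YFPneg cells with SGC0649 and with SGC0946, and 5.38 CPM ± 1.66 and 24.8 CPM ± 4.34 (SD, n = 3 each) in YFPpos cells.

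Uchl1, also without a count in naive cells, followed the reporter more closely than the other members did. It was at 1.27 and 0.771 CPM in YFPneg SGC0649 cells and at 5.61, 5.30 and 4.46 CPM in YFPneg SGC0946 cells. In YFPpos cells it was at 7.07, 6.74 and 6.49 CPM with SGC0649 and at 25.1, 28.4 and 26.0 CPM with SGC0946. For this gene, unlike Emp1 and Vldlr, every YFPpos SGC0649 library was above every YFPneg SGC0946 library, and none of the groups overlapped. Its replicates were the closest of the 5 in YFPpos cells, with means of 6.77 CPM ± 0.293 and 26.5 CPM ± 1.70 (SD, n = 3 each).

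Gpnmb was present at a low level in naive cells, at 2.04, 1.74 and 1.13 CPM. With SGC0649 it was at 5.79 and 5.55 CPM in YFPneg cells and at 7.42, 3.68 and 1.82 CPM in YFPpos cells, which overlapped both the naive and the YFPneg libraries. With SGC0946 it was at 14.1, 15.2 and 10.2 CPM in YFPneg cells and at 24.2, 37.8 and 26.5 CPM in YFPpos cells. The inhibitor groups overlapped neither each other nor any other group. YFPpos SGC0649 cells, at 4.31 CPM ± 2.85 (SD, n = 3), had the widest relative spread of any cultured group for any of the 5 genes.

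Cyp2s1 was the only one of the 5 with its highest level in naive cells, at 32.8, 30.5 and 34.9 CPM. With SGC0649 it was at 3.35 and 4.16 CPM in YFPneg cells and at 2.13, 2.06 and 1.17 CPM in YFPpos cells. With SGC0946 it was at 9.14, 6.61 and 9.69 CPM in YFPneg cells and at 8.94, 12.2 and 8.29 CPM in YFPpos cells. The inhibitor libraries of both sorts overlapped each other, lay above every SGC0649 library and stayed below every naive library. Mean Cyp2s1 was 11.5% and 5.45% of the naive mean in YFPneg and YFPpos cells with SGC0649, and 25.9% and 29.9% with SGC0946.

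**Figure D1:**
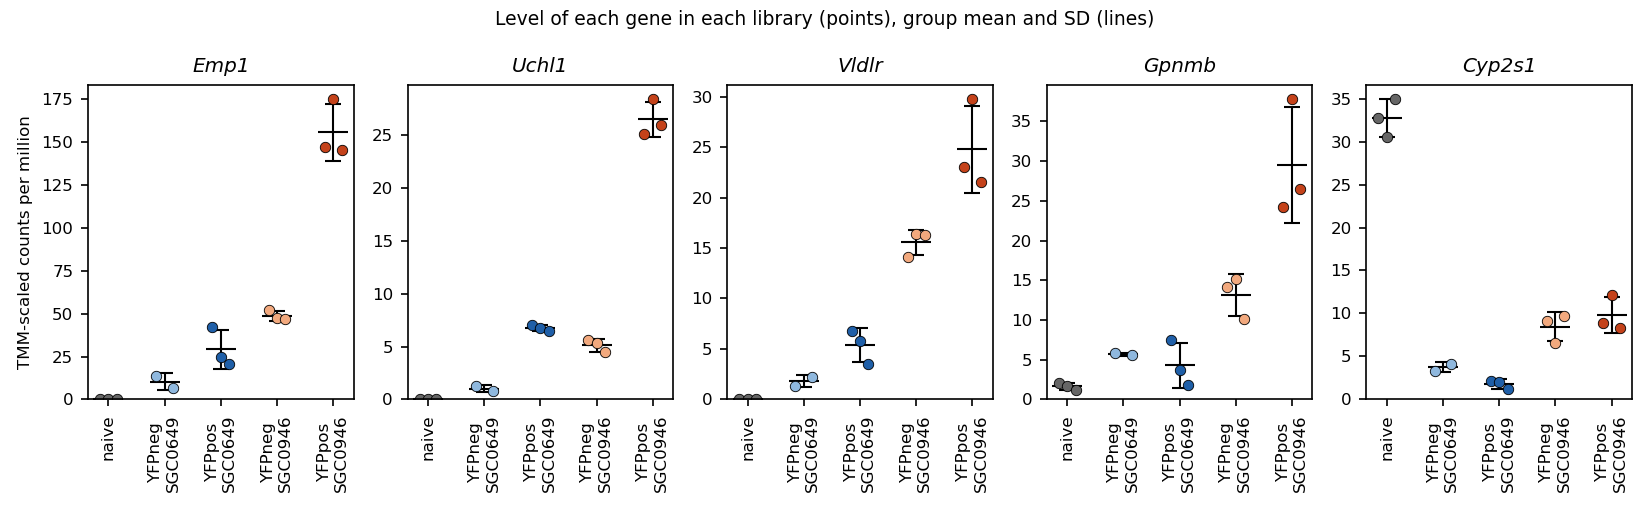
Level of each of the 5 genes in TMM-scaled CPM (vertical axis, a separate linear scale for each gene) in the 5 groups of libraries. Points are libraries and lines are the group mean and SD. Emp1, Uchl1, Vldlr and Gpnmb were highest in YFPpos SGC0946 cells, while Cyp2s1 was highest in naive cells, at 30.5 to 34.9 CPM.

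Per kilobase of exon, in YFPpos SGC0946 cells, the mean level was 26.2 CPM per kb for Emp1 and 16.2 for Uchl1. It was 4.53 CPM per kb for Gpnmb, 2.46 for Vldlr and 1.99 for Cyp2s1. Uchl1 and Gpnmb therefore had similar counts but differed in level per length, since the exons of Uchl1 add up to 1632 bases and those of Gpnmb to 6514.

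The inhibitor comparison sets SGC0946 beside SGC0649 within each sort, and asks how RNA levels differ between cultures with the inhibitor and with the control compound. DOT1L activity itself is not measured by these libraries. In YFPpos cells the libraries of the 2 compounds did not overlap for 5 of 5 members. The share of all genes without overlap was not counted, here or in the comparisons below, and it differs from the share called. In this comparison 27.7% of all genes passed the threshold (edgeR's quasi-likelihood F test, Benjamini-Hochberg adjusted p under 0.05), 12.1% higher and 15.7% lower. The members were chosen on this contrast, so nothing is read from the count. Of the genes called, 43.5% were higher with TMM factors and 55.1% with DESeq2 size factors. The log2 fold change was 2.77 (SE 0.33) for Gpnmb, 2.46 (SE 0.22) for Cyp2s1 and 2.42 (SE 0.21) for Emp1, or 6.83-fold, 5.49-fold and 5.34-fold. For Vldlr it was 2.20 (SE 0.22), 4.60-fold, and for Uchl1 1.97 (SE 0.16), 3.92-fold. The median over all genes was -0.038.

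In YFPneg cells the libraries of the 2 compounds again did not overlap for 5 of 5 members, and nothing is read from this. By the test, 8.63% of all genes passed the threshold (4.99% higher, 3.64% lower). Here the order differed. Vldlr came first, with a log2 fold change of 3.12 (SE 0.30), or 8.66-fold, before Uchl1 with 2.33 (SE 0.24), 5.01-fold, and Emp1 with 2.24 (SE 0.27), 4.72-fold. Gpnmb was 2.32-fold higher (log2 1.22, SE 0.37) and Cyp2s1 2.25-fold higher (log2 1.17, SE 0.24). The members lay at places 60 to 249 of 12343 genes by log2 fold change in YFPpos cells and at places 129 to 706 in YFPneg cells.

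By these values the inhibitor fold was larger in YFPpos cells for Gpnmb and Cyp2s1, larger in YFPneg cells for Vldlr and Uchl1, and similar in both for Emp1. The log2 effect in YFPpos minus that in YFPneg cells was 1.56 (SE 0.49) for Gpnmb and 1.28 (SE 0.33) for Cyp2s1. It was 0.18 (SE 0.33) for Emp1, -0.36 (SE 0.29) for Uchl1 and -0.91 (SE 0.37) for Vldlr. These differences are built from the contrasts that chose the genes and are given without a test. Over all genes 1.15% passed the test of this difference (0.259% higher and 0.891% lower), and of the genes called 22.5% were higher with TMM factors and 32.8% with DESeq2 size factors. The sign for Emp1 was not stable: without YFPneg SGC0649 number 61 the difference was -0.42, without YFPpos SGC0649 number 63 it was -0.015, and with the replicate number as a block it was -0.014. The signs of the other 4 held under every alternative run.

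**Figure D2:**
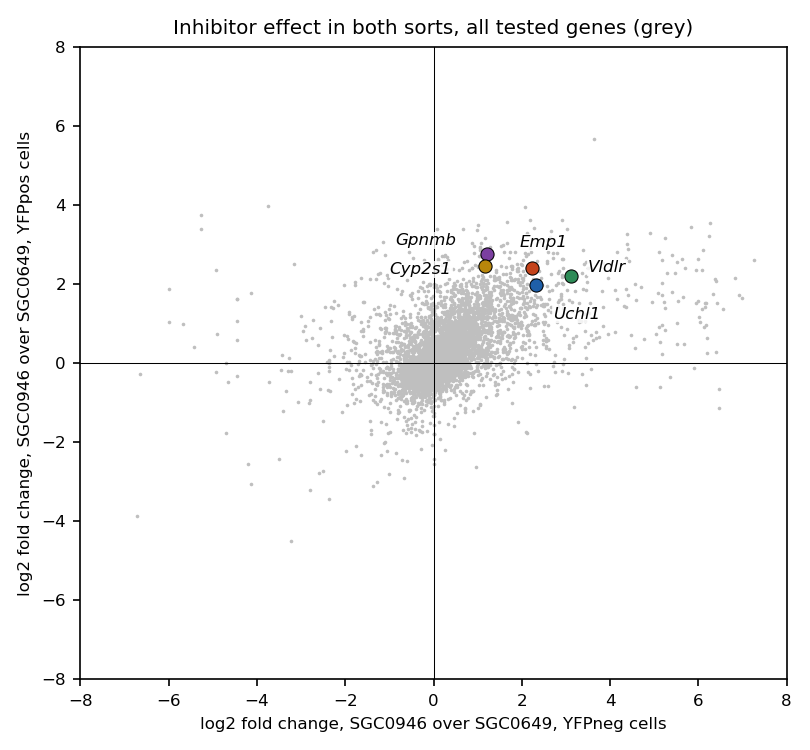
Log2 fold change of SGC0946 over SGC0649 in YFPneg cells (horizontal axis) and YFPpos cells (vertical axis) for the tested genes (grey, 1 gene outside the axes) and the 5 members (coloured). Gpnmb and Cyp2s1 sit at about the same place, with 2.77 and 2.46 in YFPpos cells and 1.22 and 1.17 in YFPneg cells, and Vldlr lies farthest to the right.

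Within the YFPpos groups single libraries were high or low for all members at once. Among the YFPpos SGC0649 libraries, number 61 had the highest level of 5 of 5 members and number 63 the lowest of 5 of 5. Among the YFPpos SGC0946 libraries, number 92, which also had the fewest unmapped reads of the YFPpos libraries, was highest for 5 of 5. Among the YFPneg libraries none was highest or lowest for more than 3 of the 5. How often each library was highest or lowest over all genes was not counted, so nothing is read from these counts. For Uchl1 the YFPpos SGC0649 libraries lay close together, at 6.49 to 7.07 CPM. Without number 92 the log2 inhibitor effect in YFPpos cells was 2.56 for Gpnmb, 2.27 for Cyp2s1, 2.33 for Emp1, 2.05 for Vldlr and 1.92 for Uchl1. The choice of control libraries mattered most for Gpnmb, whose effect was 2.40 without YFPpos SGC0649 number 63 and 3.43 without number 61, while that of Uchl1 ranged from 1.92 to 2.01 over the 11 alternatives run. In YFPneg cells, over 10 alternatives, Emp1 ranged from 1.82 to 2.83 and Vldlr from 2.81 to 3.50. Uchl1 ranged from 2.01 to 2.73, Gpnmb from 1.10 to 1.41 and Cyp2s1 from 1.02 to 1.34. Whether the share of unmapped reads plays a part in these levels was not tested.

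The gene for the inhibited enzyme itself, Dot1l, was expressed in every group. In YFPpos cells its mean was 221 CPM ± 8.29 with SGC0649 and 177 CPM ± 6.67 with SGC0946 (SD, n = 3 each), a log2 fold change of -0.32 (SE 0.07, edgeR adjusted p = 0.002). In YFPneg cells it was 254 CPM ± 36.1 (SD, n = 2) and 221 CPM ± 0.924 (SD, n = 3), log2 -0.20 (edgeR adjusted p = 0.0894). The compound acts on the enzyme, so the RNA level does not measure inhibition.

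The comparison of YFPpos with YFPneg cells under SGC0649 asks which of these genes differ between cells with and without the interferon-gamma reporter signal in the presence of the control compound. This contrast did not choose the members, though its SGC0649 libraries entered the choice as the low side. Of the 5 members, 3 were higher and 1 was lower in YFPpos cells by the test. The libraries of the sorts did not overlap for 4 of 5, for which no share over all genes was counted. In this comparison 45.2% of all genes passed the threshold, 23.9% higher and 21.3% lower, so a difference between the sorts was common. The share of unmapped reads, 6.44% to 8.35% in these YFPpos and 3.44% to 4.41% in these YFPneg libraries, moved with the sort, and its part in the values was not tested. Uchl1 differed most, 6.59-fold higher in YFPpos cells (log2 2.72, SE 0.24, 95% interval 2.22 to 3.22, edgeR adjusted p = 3.39e-07). Vldlr was 3.00-fold higher (log2 1.58, SE 0.30, 95% interval 0.95 to 2.22, edgeR adjusted p = 0.000594). Emp1 was 2.82-fold higher (log2 1.496, SE 0.27, 95% interval 0.93 to 2.06, edgeR adjusted p = 0.000248). Cyp2s1 went the other way, with a level in YFPpos cells of 0.474 times that in YFPneg cells (log2 -1.08, SE 0.27, 95% interval -1.64 to -0.51, edgeR adjusted p = 0.00355). With the replicate number as a block the Cyp2s1 difference was -0.867 and missed the threshold (edgeR adjusted p = 0.0582). For Gpnmb the libraries overlapped and the difference did not pass the test (log2 -0.40, SE 0.38, 95% interval -1.20 to 0.42, edgeR adjusted p = 0.428). Without YFPpos SGC0649 number 61 the Gpnmb difference was -1.06 and passed (edgeR adjusted p = 0.0155).

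**Figure D3:**
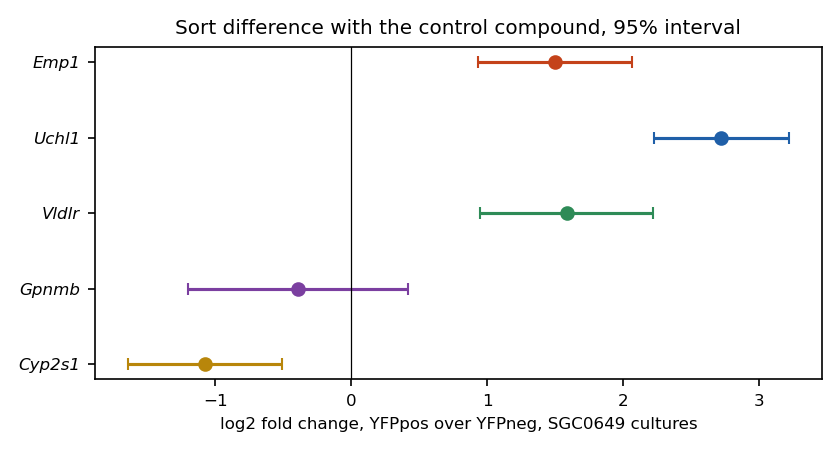
Log2 fold change of YFPpos over YFPneg cells in SGC0649 cultures (horizontal axis) for each of the 5 genes, with its 95% interval as bars. Uchl1, Vldlr and Emp1 lay above 0, Cyp2s1 below 0, and the interval of Gpnmb, from -1.20 to 0.42, held 0.

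With SGC0946 the same contrast between sorts gave a log2 difference of 2.37 (SE 0.16) for Uchl1, 1.67 (SE 0.21) for Emp1 and 1.16 (SE 0.30) for Gpnmb. It gave 0.67 (SE 0.21) for Vldlr and 0.21 (SE 0.20) for Cyp2s1. Libraries did not overlap for 4 of 5 members, the exception being Cyp2s1, with no share over all genes counted. By the test, 54.7% of all genes passed the threshold here (26.9% higher and 27.8% lower). The inhibitor libraries entered the choice of these genes as the high side, so this comparison is a description.

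The naive libraries took no part in the choice of the genes, and the comparison with them asks how the levels in SGC0649 cultures relate to those before activation. The SGC0649 libraries did enter the choice, as the low side, so these tests are not independent of it. Emp1, Vldlr and Uchl1, at or near no naive count, passed the filter on low counts through cultured libraries alone. They could thus hardly be found lower than in naive cells. It also spans the difference between sorted naive cells and cultures begun from enriched CD4+ cells. Of the 5 members, 4 were higher and 1 was lower than in naive cells in both sorts, where 79.8% of all genes differed in YFPpos cells (42.6% higher, 37.3% lower) and 69% in YFPneg cells (36.4% higher, 32.6% lower). Emp1 was 208-fold higher in YFPpos SGC0649 cells (log2 7.65, SE 0.48, edgeR adjusted p = 1.02e-10) and 73.7-fold higher in YFPneg SGC0649 cells (log2 6.16, SE 0.59, edgeR adjusted p = 6.17e-08) by the ratio of means, with 7 counts over the naive group. Vldlr and Uchl1 had no naive count, so their folds are lower bounds, of the pooled counts of a group against a floor of 3 counts over the naive group. Vldlr was at least 90.1-fold higher in YFPpos and at least 30.0-fold higher in YFPneg SGC0649 cells. Uchl1 was at least 113.6-fold and at least 17.2-fold higher. Cyp2s1 fell, by 4.20 on the log2 scale in YFPpos (SE 0.22, edgeR adjusted p = 1.12e-11) and by 3.12 in YFPneg SGC0649 cells (SE 0.24, edgeR adjusted p = 4.21e-09).

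Gpnmb was the member nearest to its naive level. It was higher by 1.79 on the log2 scale in YFPneg SGC0649 cells (SE 0.44, edgeR adjusted p = 0.00161) and by 1.40 in YFPpos SGC0649 cells (SE 0.41, edgeR adjusted p = 0.00505), although in the latter its libraries overlapped the naive ones. Without YFPpos SGC0649 number 61 that value was 0.739 and missed the threshold (edgeR adjusted p = 0.0624). Against the same naive libraries, mean Gpnmb with SGC0946 was 8.02-fold higher in YFPneg and 18-fold higher in YFPpos cells, mean Emp1 348-fold and 1110-fold. Vldlr was at least 259.6-fold and at least 412-fold higher, and Uchl1 at least 86.9-fold and at least 445.3-fold higher.

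Genes known to work with each member were read from lists, to see whether a member moved with its pathway. Called genes are those with an edgeR adjusted p under 0.05 over all 12343 genes, to be read against 12.1% higher and 15.7% lower over all genes in YFPpos cells and 4.99% and 3.64% in YFPneg cells. Around Gpnmb, 9 of 10 listed relatives, regulators and partners were tested. In YFPpos cells 2 were higher and 1 lower with SGC0946, with a median log2 fold change of 0.007, and in YFPneg cells none was higher and 1 lower, with a median of 0.164. The YFPneg counts rested on single libraries: 2 were higher without number 61 or 93, none was lower without 61, and 2 were lower without 92. Over all genes the medians were -0.038 and 0.008. Where leaving out 1 library of the comparison ends a call below, the adjusted p without it follows, by the number of the library (61 to 63 SGC0649, 91 to 93 SGC0946, of the sort named). When only the groups compared entered the fit, 199 genes were called in YFPneg cells in place of 1065, and of the 12 list genes and neighbours called in YFPneg cells only Crabp2 and Axl passed. Sdc4, which encodes the syndecan that GPNMB binds on T cells, rose by 1.49 (SE 0.26, edgeR adjusted p = 0.000574) in YFPpos cells and was at 0.99 (edgeR adjusted p = 0.0644) in YFPneg cells. Atp6v0d2, a proton pump subunit known from osteoclasts and macrophages, rose by 3.04 (SE 0.53, edgeR adjusted p = 0.000649) in YFPpos cells. Adam10, a protease that sheds the GPNMB ectodomain, fell by 0.32 in YFPpos cells (edgeR adjusted p = 0.0015) and by 0.28 in YFPneg cells (edgeR adjusted p = 0.0219, and 0.166 without number 61). Pmel, the closest relative of Gpnmb, was at -0.06 in YFPpos cells (edgeR adjusted p = 0.961) and at -1.43 in YFPneg cells (edgeR adjusted p = 0.265, and at -3.394 with 0.0242 without number 92), from few counts. Mitf, Tfeb and Tfe3, transcription factors known to drive Gpnmb in other cells, did not pass the test in either sort. Mitf, at means of 1.13 to 2.87 CPM in the cultured groups, was at 0.74 in YFPpos cells (SE 0.36, edgeR adjusted p = 0.137). In YFPneg cells it was at 0.84 (SE 0.40, edgeR adjusted p = 0.187). Tfeb was at 0.007 and -0.047 and Tfe3 at -0.096 and 0.114 in YFPpos and YFPneg cells.

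Around Cyp2s1, 14 of 21 listed aryl hydrocarbon receptor and retinoid genes were tested. In YFPpos cells 4 were higher and 2 lower (median 0.128), and in YFPneg cells 4 were higher and none lower (median 0.347). Without number 62, 1 was higher in YFPneg cells, and without 92, 1 was lower. In YFPpos cells 1 was lower without 62, 63, 91, 92 or 93. Among those higher in YFPpos cells, Tiparp, a target of the receptor, rose by 0.92 (SE 0.15, edgeR adjusted p = 0.000338). The retinoic acid receptor gene Rarg was higher by 0.60 (edgeR adjusted p = 0.00051) and Crabp2, which encodes a binding protein of retinoic acid, by 0.68 (edgeR adjusted p = 0.000413). Nfe2l2, a regulator of the oxidative stress response, fell by 0.64 (edgeR adjusted p = 7.38e-06). Cyp1b1, a standard receptor target, fell by 2.43 (edgeR adjusted p = 0.046), but it had 42 counts over all 14 libraries and missed the threshold with DESeq2 size factors (0.0535) and without any 1 of the 3 YFPpos SGC0946 libraries (0.0609 to 0.176). Cyp1a1, the best known target, was at 30 counts over all libraries and was not tested. In YFPneg cells Crabp2 was higher by 0.99 (edgeR adjusted p = 0.000998) and stayed past the threshold under every alternative run. Ahr was higher by 1.19 (edgeR adjusted p = 0.0345, and 0.0574 to 0.256 without number 62, 91 or 93), Tiparp by 0.73 (0.0138, and 0.121 without number 62) and Rarg by 0.41 (0.0391, and 0.0876 to 0.132 without number 61, 62 or 91). Of 14 other tested members of the cytochrome P450 family, out of 101 Cyp genes in the table, 2 were higher and 1 lower in YFPpos cells and none in YFPneg cells. The 2 higher were Cyp2d22, by 2.32 (SE 0.39, edgeR adjusted p = 0.000498), and Cyp27a1, by 2.19 (edgeR adjusted p = 0.0361, and 0.0609 to 0.118 without any 1 of the 6 libraries).

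Around Vldlr, 18 of 25 listed receptors, ligands and regulators were tested. In YFPpos cells 3 were higher and 1 lower (median 0.161), and in YFPneg cells 2 were higher and none lower (median 0.113). In YFPpos cells 1 was higher without number 63 or 92, and none was lower without 62, 63, 91, 92 or 93. In YFPneg cells 1 was higher without 61 or 62, and 1 lower without 91. Lrp8, the other reelin receptor, was higher by 0.41 in YFPpos cells (edgeR adjusted p = 0.0148, and 0.0529 to 0.0621 without number 62, 63 or 92) and was at -0.04 in YFPneg cells (edgeR adjusted p = 0.896). Sorl1, a sorting receptor of the family, was higher in YFPpos cells by 0.51 (edgeR adjusted p = 0.000112) and in YFPneg cells by 0.49 (edgeR adjusted p = 0.00196, and 0.0502 with only the groups compared). Pparg, a lipid-sensing transcription factor, was higher by 2.55 in YFPpos cells (edgeR adjusted p = 0.0257, and 0.0525 to 0.128 without number 61, 63, 91, 92 or 93) at a mean of 0.831 CPM. In YFPneg cells Pparg was at 5.52 (SE 1.96, edgeR adjusted p = 0.0882), from 91 counts over all 14 libraries. In YFPpos cells Lrp6 was lower by 0.24 (edgeR adjusted p = 0.0466), a call lost with DESeq2 size factors (0.104) and without number 62, 63, 91, 92 or 93 (0.0762 to 0.164).

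Around Uchl1, all 12 listed ubiquitin genes were tested, none was higher in either sort, and 3 were lower in YFPpos and 2 in YFPneg cells, with medians of -0.186 and -0.068. In YFPneg cells none was lower without number 61 or 92, and 1 without 91 or 93. The other ubiquitin C-terminal hydrolases of its kind, Uchl3 and Uchl5, were at -0.29 (edgeR adjusted p = 0.0632, and 0.0421 without number 93) and -0.16 (edgeR adjusted p = 0.148) in YFPpos cells. In YFPneg cells Uchl3 was at -0.25 (edgeR adjusted p = 0.237), and Uchl5 was lower by 0.31 (edgeR adjusted p = 0.0443, and 0.0557 to 0.338 without number 61, 91 or 92). Uchl3 has a near-identical copy, Uchl4, and reads could be split between them. Usp14, a deubiquitinase of the proteasome, fell by 0.42 in YFPpos cells (edgeR adjusted p = 0.000448) and by 0.27 in YFPneg cells (edgeR adjusted p = 0.0448, and 0.0572 to 0.286 without number 61, 92 or 93). Cops5, a subunit of the COP9 signalosome, fell by 0.24 in YFPpos cells (edgeR adjusted p = 0.00561), and Psmd14, a proteasome subunit, by 0.21 (edgeR adjusted p = 0.0488, and 0.113 with DESeq2 size factors, 0.0854 to 0.163 without number 62, 63, 91, 92 or 93). In SGC0649 cultures 10 of these 12 genes were higher in YFPpos than in YFPneg cells and none was lower, where 23.9% of all genes were higher, and Uchl1 was higher there too.

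Around Emp1, 8 of 16 listed genes for related membrane proteins were tested. In YFPpos cells 4 were higher and none lower (median 0.481), and in YFPneg cells 1 was higher (median 0.416). The YFPpos count was 1 without number 62 and 2 without 93. The YFPneg count was 4 without 93, 2 without 61 and 0 without 62, and it was 3 with DESeq2. Emp3 was at 47.5 CPM ± 3.24 with SGC0649 and 63.4 CPM ± 1.38 with SGC0946 in YFPpos cells (SD, n = 3 each). It rose by 0.42 there (SE 0.09, edgeR adjusted p = 0.00256) and was at -0.11 in YFPneg cells (edgeR adjusted p = 0.538). Unlike Emp1, it was most abundant in naive cells, at 137 CPM ± 9.51 (SD, n = 3). Emp2 was higher by 2.63 in YFPpos cells (edgeR adjusted p = 0.017, and 0.0525 to 0.0781 without number 61, 62 or 92), at a mean of 0.957 CPM. In YFPneg cells Emp2 was at 5.63 (SE 1.83, edgeR adjusted p = 0.0708), from 101 counts over all 14 libraries. There it passed with DESeq2 (DESeq2 adjusted p = 0.0448) and without number 93 (edgeR adjusted p = 0.0482). In YFPpos cells Cldnd1 was higher by 0.45 (edgeR adjusted p = 0.0148, and 0.0513 to 0.0667 without number 62, 91 or 93) and Cldn10, a claudin of epithelial tight junctions, by 2.66 (edgeR adjusted p = 0.0256, and 0.0889 to 0.149 without number 62, 63 or 93). In YFPneg cells Cldn10 was higher by 2.71 (edgeR adjusted p = 0.00999, and 0.0823 without number 62). Pmp22 was at 0 to 11 counts per group and was not tested.

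**Figure D4:**
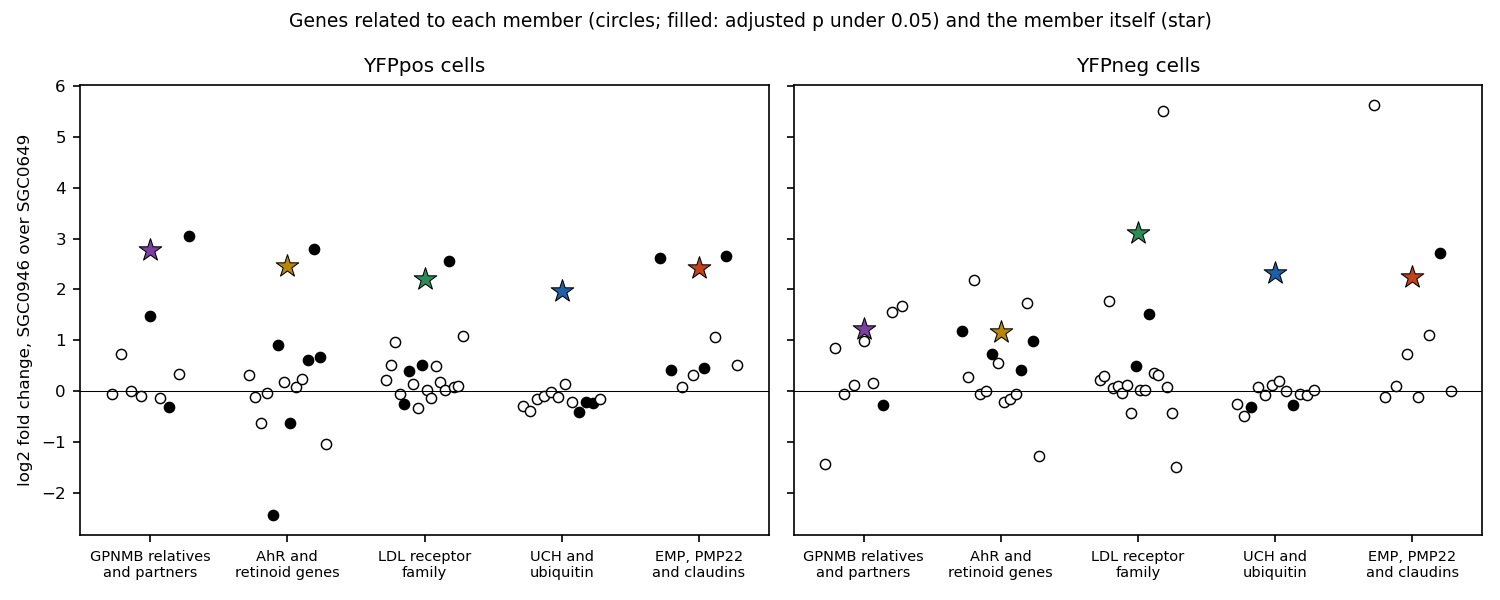
Log2 fold change of SGC0946 over SGC0649 (vertical axis) of the genes listed around each member, in YFPpos (left) and YFPneg cells (right). Circles are listed genes, filled where the edgeR adjusted p was under 0.05, and stars are the members. Most circles lay near 0, with medians from -0.186 to 0.481, while the stars lay at 1.97 to 2.77 in YFPpos cells and 1.17 to 3.12 in YFPneg cells.

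The nearest tested genes on the chromosome, 2 on either side of each member, were read to see whether a whole neighbourhood was higher with SGC0946. Of these 20 genes, 4 were higher and 2 lower in YFPpos cells (median log2 fold change 0.083), and 2 were higher and none lower in YFPneg cells (median 0.113). Axl, a receptor tyrosine kinase gene 13.8 kb from Cyp2s1, was the only one called in both sorts. It rose by 0.87 in YFPpos cells (SE 0.12, edgeR adjusted p = 6.01e-05) and by 1.29 in YFPneg cells (SE 0.15, edgeR adjusted p = 0.000212). Its effect did not differ between the sorts past the threshold (log2 -0.43, edgeR adjusted p = 0.316). The gene closest to any member, Malsu1 at 2.9 kb from Gpnmb, was at -0.09 in YFPpos cells (edgeR adjusted p = 0.515).

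Farther away, Tmem176a at 189.5 kb from Gpnmb was higher in YFPpos cells by 1.44 (edgeR adjusted p = 0.00748, and 0.0518 without number 63). Fam234b at 117.6 kb from Emp1 was higher by 0.37 (edgeR adjusted p = 0.0114, and 0.0537 to 0.0541 without number 62 or 63). Nsun7 at 378.1 kb from Uchl1 was higher by 2.58 (edgeR adjusted p = 0.0277, and 0.0589 to 0.132 without number 62, 63, 91, 92 or 93). Those were the calls upward beside Axl. On both sides of Vldlr the calls were downward: Pum3, 134.5 kb away, fell by 0.45 in YFPpos cells (edgeR adjusted p = 0.00164) and Dock8, 2014.1 kb away, fell by 0.39 (edgeR adjusted p = 0.000101). Smarca2, a chromatin remodelling gene between Dock8 and Vldlr, was at 0.05 (edgeR adjusted p = 0.604). In YFPneg cells Gprc5a, 277.8 kb from Emp1, was higher by 1.29 (edgeR adjusted p = 0.0276, and 0.0553 to 0.182 without number 62 or 92).

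**Figure D5:**
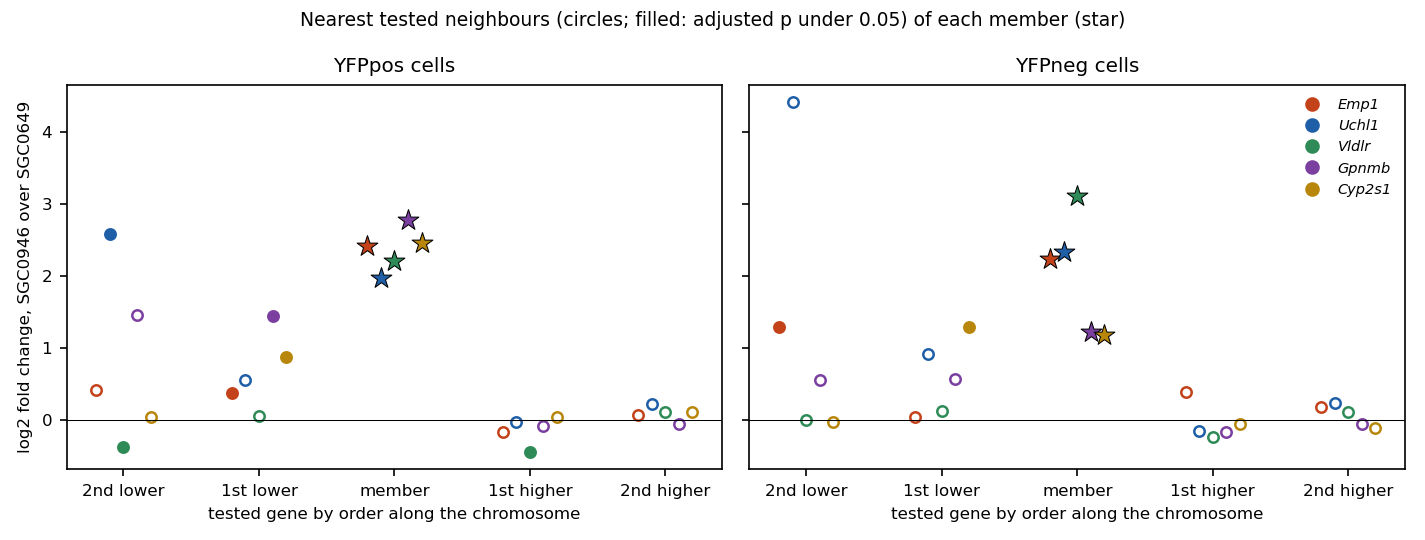
Log2 fold change of SGC0946 over SGC0649 (vertical axis) for each member (star) and its nearest tested genes (circles, filled where the edgeR adjusted p was under 0.05), placed by order along the chromosome (horizontal axis) and coloured by member, in YFPpos (left) and YFPneg cells (right). Of 20 neighbours, 6 were called in YFPpos cells and 2 in YFPneg cells.

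The members were also compared by the pattern of their log2 CPM over the libraries. Over the 11 cultured libraries, Pearson's r between 2 members ranged from 0.38 for Cyp2s1 with Uchl1 to 0.936 for Uchl1 with Emp1. Over all 14 libraries Cyp2s1 had r of -0.113 to -0.558 with the others, being highest in naive cells, and the other 4 had 0.815 to 0.986 with each other. These values describe 5 groups that the libraries share, and they rest on the choice of genes for a common rise.

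The genes with the pattern most like a member over all 14 libraries, by Pearson's r of log2 CPM, differed between the members. For Emp1 they were Car5b (0.998), Mgll (0.996) and Serpinf1 (0.995), and for Vldlr Serpinf1 (0.99), Ndrg1 (0.989) and Car5b (0.987). Emp1 and Vldlr thus shared Car5b, a mitochondrial carbonic anhydrase gene, and Serpinf1, which encodes a secreted serpin. For Uchl1 they were Axl (0.994), Prph (0.994), which encodes the neuronal filament protein peripherin, and Tnfrsf8 (0.992), which encodes CD30. For Gpnmb they were Tns3 (0.973), Lsr (0.962) and Slc2a3 (0.957), and for Cyp2s1 Cxcr4 (0.984), Hsd17b11 (0.978) and Atp2a3 (0.968). Cxcr4, a chemokine receptor gene, was 2.12 higher on the log2 scale with SGC0946 in YFPpos cells and 1.10 higher in YFPneg cells, beside 2.46 and 1.17 for Cyp2s1. It remained among the 3 genes most like Cyp2s1 over the 11 cultured libraries (r = 0.968).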

How the data were processed

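RNA was measured in 14 libraries of mouse CD4+ T cells. The authors deposited raw whole-number counts per gene and a summary of read assignment, also in counts. Per the submitters' processing notes, featureCounts, edgeR, limma and GRCm38 were used. The table's name gives reverse-strand counting and its biotype column protein-coding genes, and for the aligner no name was found (not given in the sources used here). In R 4.3.3, genes were filtered with filterByExpr by group (12343 of 22048 left), scaled with TMM factors and fitted with edgeR 4.0.16 in 1 quasi-likelihood model with a coefficient for each of 5 groups and no replicate block. The 7 comparisons used the quasi-likelihood F test with Benjamini-Hochberg adjustment over all tested genes, at 0.05. The SE of a log2 fold change was taken from its size and the F value, and intervals cover 95%. Alternatives used DESeq2 1.42.0 or its size factors, no filter, only the groups compared, a replicate block, or 1 library fewer. GENCODE M21 matched 21781 genes, all on the same chromosome. Promoter windows are from RefSeq, for 5 of 5 members.

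The 5 members and the lists of related genes and cell markers were chosen with earlier results of these data known. The genes named were the members, Dot1l, close relatives and up to 4 genes with the smallest p of each list, the 3 genes most like each member, and 2 neighbours on either side. Ifng, Ahr, Tfeb, Tfe3, Lrp6, Psmd14, Cyp2d22 and Cyp27a1 fall outside this rule and were named after their values were seen. A few list genes are left out of the text. The 9 motifs were chosen after the data were seen. The method was tested on simulated data. No columns of libraries were identical, and libraries of a group differed beyond sampling noise (chi-square per degree of freedom 3.01 to 19.6). Totals of 14486577 to 31614057 counts per library make the floor of 3 counts over the naive group 0.0596 CPM, which covers counting error only.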

Additional observations from a re-analysis of the deposited data

Results flagged for a closer look

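Dock8, a guanine nucleotide exchange factor gene of leukocytes and a neighbour of Vldlr, had an inhibitor effect that differed between the sorts by a test of the difference itself. The SGC0946 effect in YFPpos minus that in YFPneg cells was -0.379 on the log2 scale (edgeR adjusted p = 0.0295), from -0.39 in YFPpos and -0.01 in YFPneg cells. Over the alternatives run the adjusted p ranged from 0.00266 to 0.24. The call was lost with DESeq2 size factors (0.063), with only the groups compared (0.118), with the replicate number as a block (0.24) and without any 1 of 7 libraries (0.0626 to 0.097): YFPneg SGC0649 numbers 61 and 62, YFPpos SGC0649 numbers 62 and 63, and YFPpos SGC0946 numbers 91, 92 and 93. Vldlr itself, whose difference of -0.91 is a description, lies 2014.1 kb away. No other neighbour or listed gene differed between the sorts past the threshold in this test, where 1.15% of all genes did.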

How the results depend on the processing

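The inhibitor effects of the 5 members kept their direction in both sorts under every alternative run, and their group levels moved by less than 1 SD. The genes were chosen for large rises in these comparisons, so nothing is read from the kept direction. Counts of called genes depended more on single libraries. In YFPpos cells the inhibitor comparison called 3424 genes, and 1886 to 3449 with 1 library left out (1886 without YFPpos SGC0649 number 63, 2004 without YFPpos SGC0946 number 92). In YFPneg cells it called 1065 genes, 1603 with DESeq2, 199 with only the groups compared, and 335 to 1520 with 1 library left out (335 without YFPneg SGC0649 number 62). The difference between sorts called 142 genes, 295 with DESeq2, 56 with only the groups compared, and 61 to 241 with 1 library left out, 7 of them moving it by over 1.5 times. For Emp1 this difference was 0.177, and -0.422 to 0.593 with 1 library left out. It was -0.422 without YFPneg SGC0649 number 61, -0.015 without YFPpos SGC0649 number 63 and -0.014 with the replicate number as a block. With 1 library left out, the Gpnmb sort difference with SGC0649 ranged from -1.055 (without YFPpos SGC0649 number 61, edgeR adjusted p = 0.0155) to -0.036, and its difference of YFPpos SGC0649 from naive cells from 0.739 (without number 61, edgeR adjusted p = 0.0624) to 1.76. The Cyp2s1 sort difference was -0.867 (edgeR adjusted p = 0.0582) with the block. The cause of these shifts was not tested.

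Whether equal numbers pair the sorts was checked by the correlation of deviations from the group means. It was 0.119 for numbers 61 and 62, which give 1 value since the 2 YFPneg SGC0649 libraries deviate as mirror images, 0.111 for 91, 0.078 for 92 and 0.041 for 93, not above 0.1 in every pair, so the block is an alternative only. Each of 91 to 93 correlated best with itself, a hint from the data and not the design. With the block the sort comparisons called 4342 genes in place of 5585 (SGC0649) and 6219 in place of 6752 (SGC0946), and the difference between sorts 96. A block by the last digit of the number, which the labels do not give as a pairing (correlations 0.036 to 0.215 between compounds), called 2807 and 1008 genes in the inhibitor comparisons of YFPpos and YFPneg cells. It ended the calls of Lrp6 (edgeR adjusted p = 0.136), Cyp1b1 (0.137), Psmd14 (0.0965), Pparg (0.0741), Cyp27a1 (0.0814) and Nsun7 (0.062) in YFPpos cells and of Rarg (0.0557) and Usp14 (0.0636) in YFPneg cells. Of 873 values of listed genes, neighbours and Cyp genes under alternatives, 752 kept their side of the threshold, 102 lost it, 19 gained it and 0 changed sign past it. With 2 YFPneg SGC0649 libraries, leaving out 1 assumes that the other varies like the remaining groups.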
